A study of Equus caballus with 32 samples.

Results

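Transcripts of iron storage and transport were examined in venous blood of 32 mares, all Welsh Ponies, 30 days after weaning. In 16 mares the weaning was progressive and in 16 it was brutal, and the labels describe neither procedure further. Each mare gave 1 single-colour array, so the spread between arrays of a group holds the spread between animals. The genes were 9, namely FTH1, FTL, TFRC, SLC11A2, SLC11A1, SLC40A1, HMOX1, IREB2 and ACO1, and their measurements were all non-control spots that the array files name with one of these symbols. All 9 were on the array, with 11 of its 43987 probes and 18 of its 61657 non-control spots, among 15069 gene symbols.

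Cells take up iron bound to transferrin through the transferrin receptor (TFRC), move it out of endosomes through SLC11A2, and store what they do not use inside ferritin, a hollow shell of heavy chains (FTH1) and light chains (FTL). Phagocytes also gain iron from engulfed red cells: heme oxygenase (HMOX1) opens the haem ring and frees its iron, SLC11A1 carries metal out of the phagosome, and ferroportin (SLC40A1) is the only known exporter of iron from mammalian cells. The iron regulatory proteins ACO1 and IREB2 bind stem loops in the messages of ferritin, ferroportin and the transferrin receptor and set how far these are translated or degraded, so that part of the control of iron is not seen in transcript levels.

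Both ferritin chains, the transferrin receptor, heme oxygenase and ACO1 were read by probes that leave at least 1 reading frame without a stop. A sequence for each, taken from the array files, is shown. For FTH1 it is the less bright of its 2 probes that is shown, while its main results come from the brighter one. Letters are lower case throughout, since no base within a probe was compared with another, and all run 5′ to 3′.
FTH1: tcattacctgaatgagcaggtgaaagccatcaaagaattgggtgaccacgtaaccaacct
FTL: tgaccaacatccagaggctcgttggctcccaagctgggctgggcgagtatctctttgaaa
TFRC: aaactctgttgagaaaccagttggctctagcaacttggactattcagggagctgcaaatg
HMOX1: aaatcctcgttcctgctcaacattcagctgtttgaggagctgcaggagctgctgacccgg
ACO1: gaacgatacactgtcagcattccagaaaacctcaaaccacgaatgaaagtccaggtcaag

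Coordinates follow the annotation in the array files, which name the build EquCab1, and the files do not say whether a probe lies in a coding or an untranslated part. The FTH1 probe shown lies at chrUn:117613011-117613070 on the minus strand, and the brighter FTH1 probe lies at chrUn:117612805-117612864 on the same strand. FTL is at chrUn:234059506-234059565, TFRC at chr19:29613618-29613677 and ACO1 at chr23:39508633-39508692, all on the plus strand. The HMOX1 probe spans chr28:32851501-32852382, which is 882 bases for a probe of 60, so in that annotation it crosses an intron. Both metal transporters lie on chromosome 6, SLC11A1 at chr6:8058345-8058404 and SLC11A2 at chr6:68491943-68492002, and SLC40A1 lies at chr18:54610913-54610972. The IREB2 probes lie at chr1:113346229-113346288 and chr1:113345103-113345162. Probes of different genes among the 9 shared no run longer than 9 bases, and the FTL probe shared at most 6 bases in a row with either FTH1 probe, so that signals of both ferritin chains came from unlike sequences.

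Values are given on the log2 scale, where 0 means a signal equal to the 75th percentile of all non-control spots on the same array, and levels are not set against each other between genes because probes differ in brightness. That percentile lay between 339.5 and 646 intensity units, and by the scanner software's own test between 53.0 and 66.0% of an array's spots were well above background. The arrays fill 4 slides, and each slide holds 4 progressive and 4 brutal mares. Markers of neutrophils (11 of 14 listed), monocytes (8 of 10), T cells (11 of 11), B cells (8 of 8) and NK or cytotoxic cells (9 of 9) were measured, as were 7 of 12 platelet markers and 5 of 16 erythroid markers. Of 8 endothelial markers 3 were measured, namely VWF, PECAM1 and ROBO4. The array progressive 16 had 851 spots that the software set aside as outliers, and the fits and correlations were repeated without it.

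Across the 9 genes no difference between progressive and brutal weaning passed the threshold. Limma, which tests each gene with a spread moderated over all genes, called 0 of the 8 measured genes and 0 of all 9396 tested genes (0%) at an adjusted p under 0.05, with Benjamini-Hochberg adjustment over all of them. The largest differences were of SLC11A1, FTL and FTH1, all with lower means after progressive weaning, and FTH1 was the 1 member of 8 with an unadjusted p under 0.05, against 2.6% of all genes in either direction and 1.86% lower after progressive weaning. Of the 8 measured genes 5 had a mean lower after progressive weaning and 3 a higher one, with a median difference of -0.06, beside 58.3% of all genes below 0 and a median of -0.02. The ninth gene, TFRC, was not tested because it did not stand well above background on any array.

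**Figure D1:**
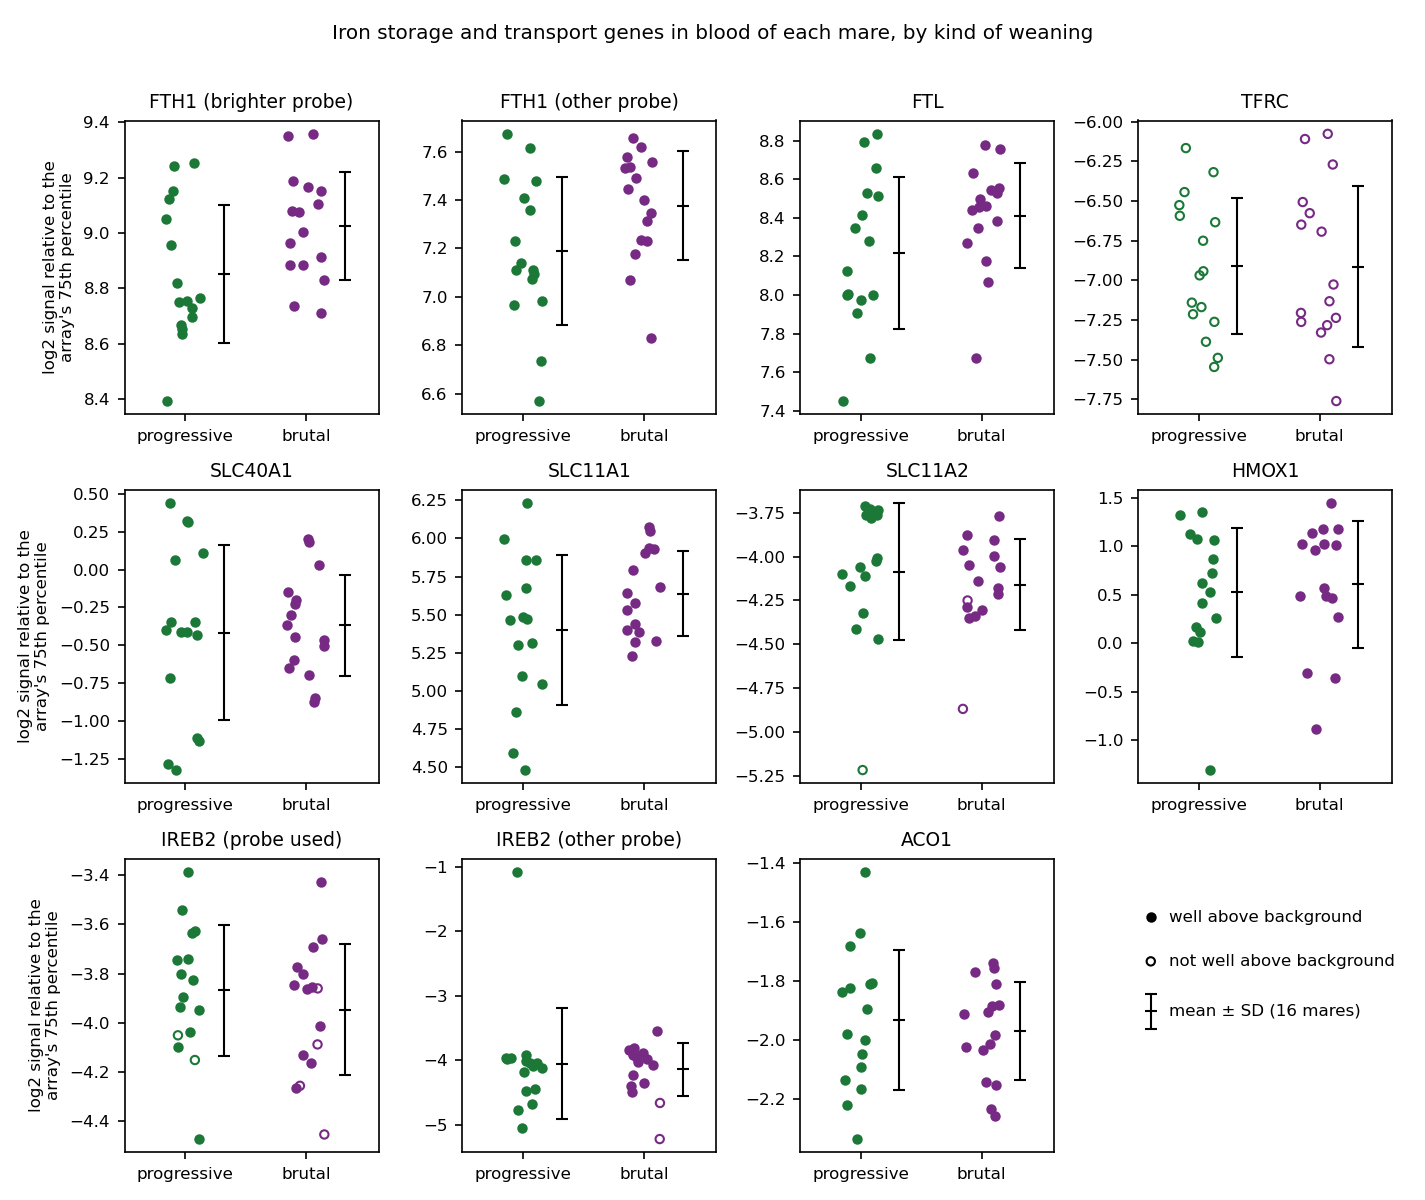
Each point is the log2 signal of 1 mare, scaled to the 75th percentile of its array (y axis, scaled separately in each panel) for the 11 probes of the 9 iron genes, with progressive mares left of brutal mares; open points were not well above background, and bars give mean ± SD of 16 mares. The groups overlap in every panel, TFRC has open points only, and 1 progressive mare stands alone at -1.08 on the second IREB2 probe.

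Ferritin heavy chain came closest to a difference between the kinds of weaning. FTH1 had a lowest value of 8.39, a median of 8.76 and a highest of 9.25 after progressive weaning, against 8.71, 9.04 and 9.36 after brutal weaning. In 5 of 16 progressive mares FTH1 lay below the lowest brutal mare, 2 brutal mares lay above the highest progressive mare, and the groups otherwise overlapped. Those 2 were brutal 12 and brutal 8, whose arrays had the lowest 75th percentiles of all, 339.5 and 354.9 intensity units. Their unscaled FTH1 signals, 221795 and 232956, lay inside the range of 192374 to 312133 over all arrays. The relation of FTH1 to this percentile was not tested. The means were 8.85 ± 0.25 after progressive and 9.03 ± 0.19 after brutal weaning (SD, n = 16 each), a difference of -0.17 with a standard error (SE) of 0.081 and a 95% interval of -0.34 to -0.0088, or a ratio of 0.887. Limma gave it an unadjusted p of 0.0395 and an adjusted p of 0.997. The unadjusted p was above 0.05 with normexp, another way to correct the local background (0.0555), in the authors' series table (0.063) and without the array progressive 16 (0.0552). The difference was -0.05, -0.10, -0.28 and -0.27 on slides 1 to 4, below 0 on 4 of 4 slides. The second FTH1 probe, which shares no run over 6 bases with the first, averaged 7.19 ± 0.30 after progressive and 7.38 ± 0.22 after brutal weaning (SD, n = 16 each) and differed by -0.19 (SE 0.095, unadjusted p = 0.0575 and adjusted p = 0.996 in limma). Both probes followed each other over the mares with r = 0.909, so they report much the same ordering of animals.

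Ferritin light chain had a difference of like size with a wider error. FTL had a lowest value of 7.45, a median of 8.20 and a highest of 8.84 after progressive weaning, against 7.67, 8.46 and 8.78 after brutal weaning. Both groups spanned nearly the same range, with 2 progressive mares below the lowest brutal one and 11 of 16 progressive mares below the brutal median. The means were 8.22 ± 0.40 after progressive and 8.41 ± 0.27 after brutal weaning (SD, n = 16 each), a difference of -0.19 (SE 0.118, unadjusted p = 0.112, adjusted p = 0.997 in limma). It was below 0 on 4 of 4 slides, at -0.21, -0.03, -0.29 and -0.23. FTL also had the smallest p of the 8 genes for differences between slides, with an unadjusted p of 0.0406 and an adjusted p of 0.702 in limma's F test, where slide means ran between 8.12 and 8.54. Neither FTL nor any other of the 8 genes was called between slides, nor was any of 9396 genes (0%), while 6.9% of genes had an unadjusted p under 0.05.

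SLC11A1, the phagosome metal transporter of macrophages and neutrophils, had the largest difference of the 8 genes and a wide spread. Its lowest, median and highest values were 4.48, 5.47 and 6.23 after progressive weaning, against 5.23, 5.61 and 6.07 after brutal weaning. In 5 progressive mares it lay below the lowest brutal mare, while the highest value of all was also that of a progressive mare. The means were 5.40 ± 0.49 after progressive and 5.64 ± 0.28 after brutal weaning (SD, n = 16 each), a difference of -0.24 (SE 0.137, unadjusted p = 0.0894, adjusted p = 0.997 in limma), with -0.09, -0.28, -0.18 and -0.41 on slides 1 to 4.

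Markers of several cell types also had lower means after progressive weaning. A score was formed for each cell type as the mean z value of its measured markers. The neutrophil score averaged -0.21 ± 0.88 after progressive and 0.21 ± 0.66 after brutal weaning (SD, n = 16 each), and ran between -1.69 and 1.39 in progressive mares and between -1.38 and 1.15 in brutal mares. All 11 measured neutrophil markers had lower means after progressive weaning, as had 7 of 7 platelet markers, 3 of 3 endothelial markers, 4 of 5 erythroid markers and 7 of 9 NK and cytotoxic markers. So had 4 of 8 monocyte, 5 of 11 T cell and 2 of 8 B cell markers, beside 58.3% of all genes. The score differences between the groups were not tested. Score differences were -0.57 for platelets, -0.53 for endothelium, -0.47 for red cells and -0.30 for NK and cytotoxic cells, against -0.17 for monocytes, 0.0037 for T cells and 0.11 for B cells. The platelet score ran between -1.68 and 0.97 in progressive mares and between -0.55 and 1.47 in brutal mares, the endothelial score between -1.09 and 1.001 in progressive mares and between -0.41 and 1.104 in brutal mares. The part of these shifts in the FTH1, FTL and SLC11A1 values was not tested, and in whole blood fewer cells of a type and less RNA per cell cannot be told apart.

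The transferrin receptor stayed at background. TFRC was read in 5 spots per array, and on 0 of 16 progressive and 0 of 16 brutal arrays did it stand well above background, so each value is only an upper bound. Its log2 signals had a lowest value of -7.55, a median of -6.96 and a highest of -6.17 after progressive weaning, against -7.76, -7.08 and -6.08 after brutal weaning. Those ranges coincide, and the 5 spots of an array differed among themselves by an SD of 0.365. No fold is given, since TFRC was not well above background in either group, and it enters no correlation.

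SLC11A2, the divalent metal transporter that moves iron out of endosomes, was dim but measurable, well above background on 15 of 16 progressive and 14 of 16 brutal arrays. It had a lowest value of -5.22, a median of -4.04 and a highest of -3.71 after progressive weaning, against -4.87, -4.16 and -3.77 after brutal weaning. The groups overlapped, and both lowest values were those of arrays where it was not well above background. The means were -4.09 ± 0.39 after progressive and -4.16 ± 0.26 after brutal weaning (SD, n = 16 each), a difference of 0.07 (SE 0.115, unadjusted p = 0.525, adjusted p = 0.997 in limma). The lowest value belongs to the array progressive 16, and without it the difference was 0.15. With normexp it was -0.03, on the other side of 0, and on slides 1 to 4 it was 0.32, -0.09, 0.17 and -0.11.

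Ferroportin and heme oxygenase varied more between mares than most genes, and neither was called between the groups. SLC40A1 had a lowest value of -1.33, a median of -0.41 and a highest of 0.44 after progressive weaning, against -0.88, -0.41 and 0.20 after brutal weaning. Its medians coincide, and in 4 progressive mares it lay below the lowest brutal mare. The means were -0.42 ± 0.58 after progressive and -0.37 ± 0.33 after brutal weaning (SD, n = 16 each), a difference of -0.05 (SE 0.161, unadjusted p = 0.769, adjusted p = 0.997 in limma), and without the array progressive 16, which had the highest value, it was -0.10. HMOX1 had a lowest value of -1.31, a median of 0.58 and a highest of 1.35 after progressive weaning, against -0.88, 0.77 and 1.45 after brutal weaning. Both groups covered nearly the same range, with means of 0.52 ± 0.67 after progressive and 0.61 ± 0.65 after brutal weaning (SD, n = 16 each), a difference of -0.08 (SE 0.223, unadjusted p = 0.716, adjusted p = 0.997 in limma). The highest and lowest mares differed 6.76-fold in HMOX1 and 3.40-fold in SLC40A1. The SD over all 32 mares was 0.652 for HMOX1, at percentile 93.9 of all tested genes, and 0.465 for SLC40A1, at percentile 81.9, beside a median SD of 0.297 over all genes.

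The regulators varied less than these 2 genes, for IREB2 by the probe used. IREB2 was read by its brighter probe, well above background on 14 of 16 progressive and 12 of 16 brutal arrays, with a lowest value of -4.47, a median of -3.86 and a highest of -3.39 after progressive weaning, against -4.45, -3.86 and -3.43 after brutal weaning. The ranges of both groups coincide. The means were -3.87 ± 0.27 after progressive and -3.95 ± 0.27 after brutal weaning (SD, n = 16 each), a difference of 0.08 (SE 0.094, unadjusted p = 0.410, adjusted p = 0.997 in limma), which with normexp was -0.04. ACO1 had a lowest value of -2.34, a median of -1.94 and a highest of -1.43 after progressive weaning, against -2.26, -1.95 and -1.74 after brutal weaning, so the progressive mares reached both lower and higher. The means were -1.93 ± 0.24 after progressive and -1.97 ± 0.17 after brutal weaning (SD, n = 16 each), a difference of 0.04 (SE 0.075, unadjusted p = 0.623, adjusted p = 0.997 in limma). ACO1 had the smallest SD of the 8 genes, 0.203, at percentile 18.7 of all genes, and FTH1 lay at percentile 30.5 with 0.236. IREB2 lay at percentile 40.4, SLC11A2 at 58.3, FTL at 63.1 and SLC11A1 at 74.8. The IREB2 probe not used was well above background on 30 of 32 arrays, against 26 for the probe used. Its SD was 0.665, or 0.379 without the mare progressive 7, against 0.264 for the probe used. Spots of one probe on one array differed by an SD of 0.143 for ACO1, 0.027 for the second FTH1 probe and 0.241 for SLC11A2, beside SDs between mares of 0.203, 0.280 and 0.328.

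**Figure D2:**
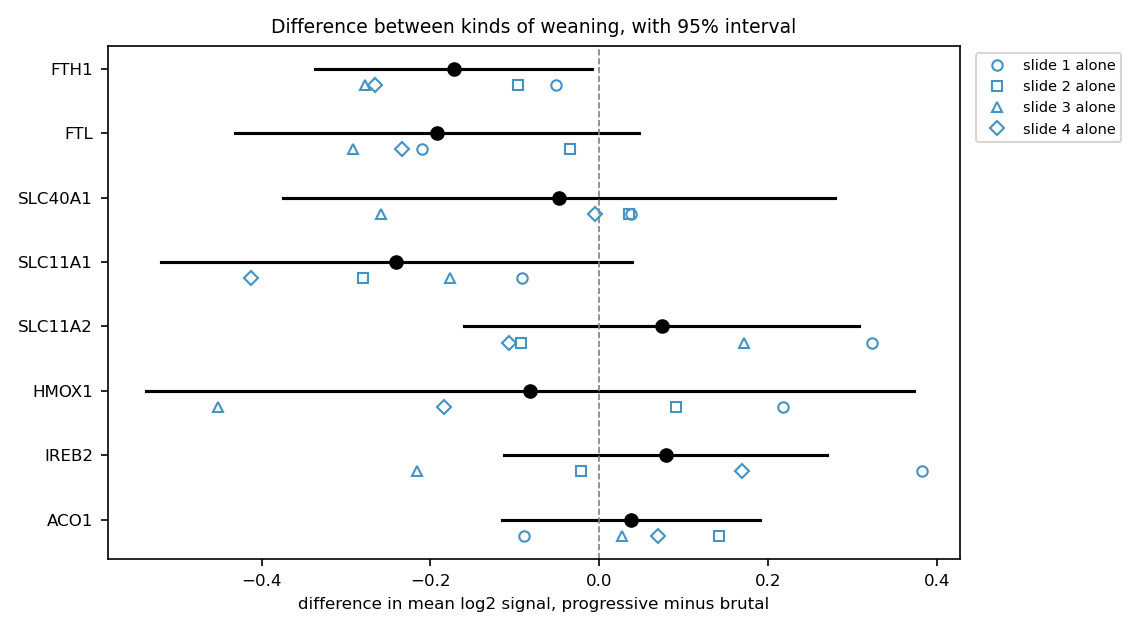
Black points give the difference in mean log2 signal, progressive minus brutal (x axis), of the 8 measured iron genes with its 95% interval (limma, 16 mares per group), and open symbols give the same difference on each of 4 slides alone (4 mares per group). The interval of FTH1 ends just below 0 and those of the other 7 genes include 0, while FTH1, FTL and SLC11A1 lie below 0 on every slide.

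The wider iron pathway was measured in 53 genes, from a list of 75 symbols that left out the 9 members. The list holds HJV, ERFE and FDX2 also under the older names HFE2, FAM132B and FDX1L. Of these 53 genes 35 had lower and 18 higher means after progressive weaning, with a median difference of -0.04 beside -0.02 over all genes. Over all genes 58.3% had lower means, and the counts by role below have to be read against that share. None passed an adjusted p under 0.05 in limma, and 2 had an unadjusted p under 0.05, against 2.6% of all genes. Genes of uptake and transferrin were measured in 7 of 12, of which 4 had lower means. LTF, the iron-binding lactoferrin of neutrophil granules, averaged 0.60 ± 1.09 after progressive and 1.52 ± 0.90 after brutal weaning (SD, n = 16 each), a difference of -0.92 (SE 0.336, unadjusted p = 0.00963, adjusted p = 0.997 in limma). STEAP4, a metalloreductase, differed by -0.29 (SE 0.181).

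Cytosolic iron genes had lower means in 7 of 9 measured, with FTMT counted among the 7, beside 58.3% of all genes. FTMT, which codes for mitochondrial ferritin, differed by -0.19 (SE 0.095, unadjusted p = 0.0495, adjusted p = 0.997 in limma). Its value is uncertain, because the custom oligo that carries this name is described in the files as designed on the mouse gene, and its signal followed the second FTH1 probe over the 32 mares with r = 0.993, although they share no run over 5 bases. FBXL5, an iron-sensing ubiquitin ligase subunit that removes IREB2, differed by -0.18 (SE 0.113). In the group of export and systemic control 3 of 13 listed symbols were measured, with SMAD4, a mediator of hepcidin induction in liver, at -0.05 (SE 0.083) and the BMP receptor BMPR2 at -0.06 (SE 0.173). Mitochondrial iron and iron-sulfur genes had lower means in 10 of 15 measured, with ABCB10, a mitochondrial transporter needed for haem synthesis, at -0.13 (SE 0.083) and SLC25A28 (mitoferrin 2) at -0.05 (SE 0.058).

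In haem synthesis 6 of 8 measured genes had lower means, with ALAS2, the first enzyme of the path in red cell precursors, at -0.66 (SE 0.392) and UROD, a later enzyme, at -0.13 (SE 0.077). Among genes of haem transport, scavenging and breakdown 6 of 11 had lower means, with BLVRA, which reduces the biliverdin that HMOX1 makes, at -0.18 (SE 0.109) and LRP1, a receptor for haem bound to hemopexin, at -0.27 (SE 0.171). LRP1 was well above background on 16 of 32 arrays. Of the genes named in these 3 paragraphs on the wider pathway, none passed the threshold.

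Correlations across mares, with both kinds of weaning pooled, were found among the members. Over the 32 mares 13 of 28 pairs among the 8 measured genes correlated at an adjusted p under 0.05 (permutation test of Pearson's r with 100000 resamples, adjusted over the 28 pairs). The smallest r so called was 0.41 in size, and 19.1% of all pairs among the 9396 tested genes reach it, against which the 13 of 28 have to be read. Pairs that share a gene are not independent, all values of an array share its scaling. Of the 28 pairs 9 passed when each value was taken as its deviation from the mean of its slide and group, 16 without the array progressive 16, 7 under quantile normalisation and 6 when the probes of a gene were averaged.

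The ferritin chains formed the closest pair on the main scaling. Under quantile normalisation FTL with SLC40A1 was closer, at 0.746 against 0.694. FTH1 and FTL correlated with r = 0.837 (permutation p = 1e-05, the smallest these permutations can give, adjusted p = 0.00028) and Spearman's rho = 0.860 (permutation p = 1e-05, adjusted p = 0.00028). Without the 2 mares farthest from the FTH1 median r was 0.803. It was 0.896, 0.880, 0.904 and 0.930 within slides 1 to 4, and 0.858 within progressive and 0.761 within brutal mares. Under the 7 alternatives r lay between 0.694 and 0.910, past the threshold in each. FTL ranked 56 among 9395 genes by r with FTH1, and the median r of FTH1 with all genes was 0.16.

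**Figure D3:**
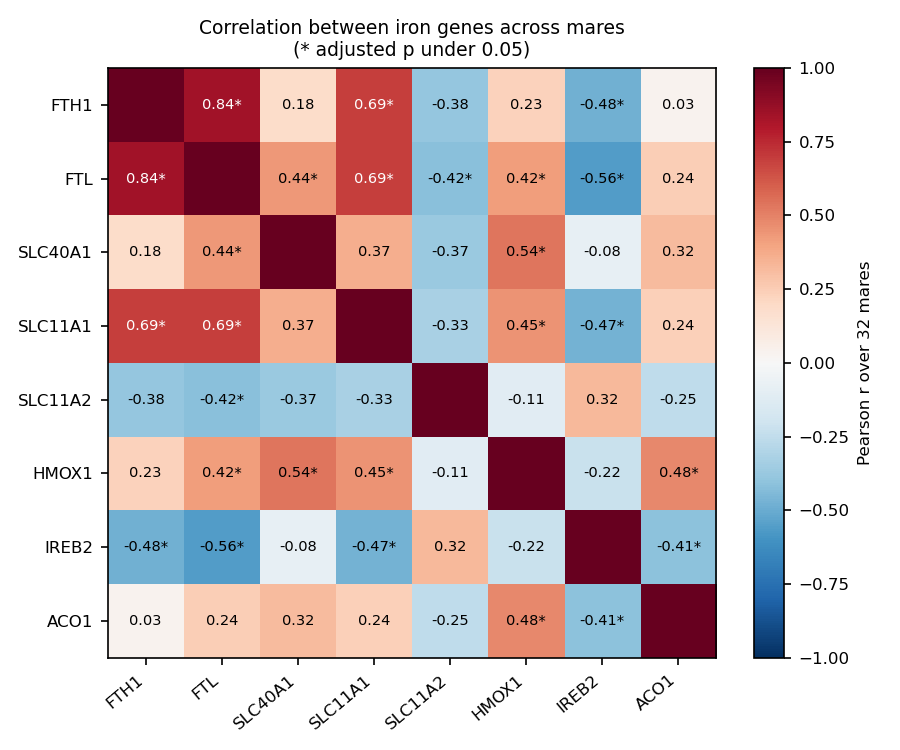
Colours and numbers give Pearson's r over 32 mares for each pair of the 8 measured iron genes (both axes), with a star where the permutation p adjusted over 28 pairs is under 0.05. The deepest red off the diagonal is the pair of ferritin chains at 0.84, SLC11A1 stands at 0.69 with both, and IREB2 is negative with most genes.

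SLC11A1 went with both ferritin chains. With FTH1 its r was 0.693 (permutation p = 3e-05, adjusted p = 0.00028, rho = 0.682 with permutation p = 5e-05), 0.644 without the 2 farthest mares, and 0.474, 0.485, 0.682 and 0.947 within slides 1 to 4. With FTL its r was 0.689 (permutation p = 2e-05, adjusted p = 0.00028, rho = 0.667 with permutation p = 5e-05), 0.528 without the 2 farthest mares, and 0.725, 0.645, 0.609 and 0.898 within slides 1 to 4. Both relations were positive in each group, at 0.695 and 0.704 within progressive mares and 0.597 and 0.559 within brutal mares. Quantile normalisation took both below the threshold, to 0.406 with an adjusted p of 0.0627 and to 0.379 with an adjusted p of 0.0747, and the authors' series table did so for FTH1 (0.385, adjusted p = 0.0633). The same mares stood low in all 3 genes: progressive 15 had the lowest FTH1 and SLC11A1 and the second lowest FTL, and progressive 1 had the lowest FTL, the second lowest SLC11A1 and the third lowest FTH1.

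Heme oxygenase went with ferroportin and with ACO1. For SLC40A1 and HMOX1, the exporter and the enzyme that frees iron for it, r was 0.535 (permutation p = 0.0015, adjusted p = 0.0084, rho = 0.545 with permutation p = 0.00146). It was 0.546 without the 2 farthest mares, 0.610, 0.170, 0.771 and 0.550 within slides 1 to 4, 0.611 within progressive mares and 0.446 within brutal mares. HMOX1 and ACO1 had an r of 0.477 (permutation p = 0.00572, adjusted p = 0.0202, rho = 0.572 with permutation p = 0.00085) and 0.441 without the 2 farthest mares. Within slides it was 0.649, 0.345, 0.497 and 0.474, within progressive mares 0.297 and within brutal mares 0.778. These 2 relations passed the threshold under all 7 alternatives.

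IREB2 ran against the ferritins and SLC11A1, but these relations depended on the processing. With FTL its r was -0.557 (permutation p = 0.00102, adjusted p = 0.00714, rho = -0.513 with permutation p = 0.00334), -0.480 without the 2 farthest mares, and -0.818, -0.542, 0.072 and -0.315 within slides 1 to 4. With FTH1 it was -0.484 (permutation p = 0.00536, adjusted p = 0.0202, rho = -0.508 with permutation p = 0.00354), -0.493 without the 2 farthest mares, and -0.748, -0.542, 0.153 and -0.510 within slides. With SLC11A1 it was -0.474 (permutation p = 0.00578, adjusted p = 0.0202, rho = -0.472 with permutation p = 0.00709), -0.397 without the 2 farthest mares, and -0.406, -0.546, -0.366 and -0.535 within slides. Normexp turned all 3 to the other sign, at 0.192, 0.441 and 0.129, and the positive r with FTH1 passed the threshold (adjusted permutation p = 0.0285). All 3 missed the threshold under quantile normalisation (-0.332, -0.172 and -0.320), in the series table (-0.281, -0.237 and -0.194) and with the mean of a gene's probes (-0.268, -0.272 and -0.286), at adjusted permutation p-values between 0.109 and 0.371. Both IREB2 probes agreed poorly with each other, with r = 0.076 over the 32 mares, so what these values say of IREB2 itself is uncertain.

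The other 5 pairs past the threshold were weaker on the main scaling. SLC11A1 with HMOX1 had an r of 0.451, FTL with SLC40A1 0.436, FTL with HMOX1 0.420, FTL with SLC11A2 -0.418 and IREB2 with ACO1 -0.410, at adjusted permutation p-values between 0.0324 and 0.0446. Within slides FTL with SLC40A1 fell on both sides of 0, between -0.331 and 0.751, and so did FTL with SLC11A2, between -0.655 and 0.263. Leaving out the 2 farthest mares brought these 2 pairs to 0.335 and -0.304. Of the 7 alternatives SLC11A1 with HMOX1 passed under 6, FTL with SLC40A1 and FTL with HMOX1 under 4 each, and FTL with SLC11A2 and IREB2 with ACO1 under 2 each. FTL with SLC40A1 rose to 0.746 under quantile normalisation and 0.732 in the series table (adjusted permutation p = 0.00028 and 9.3e-05). FTL with HMOX1 rose to 0.531 and 0.538 there (adjusted permutation p = 0.0105 and 0.00938). FTL with SLC11A2 turned to 0.204 with normexp. By rho FTH1 with SLC11A2 (-0.540), SLC11A2 with IREB2 (0.470) and SLC11A1 with SLC11A2 (-0.411) also passed (adjusted permutation p = 0.00535, 0.0156 and 0.0377). FTL with SLC40A1 did not pass by rho (0.359, adjusted permutation p = 0.0768). ACO1 and FTH1, the regulator and its target, had an r of 0.032, and FTH1 with SLC40A1 had 0.181 (adjusted permutation p = 0.863 and 0.358).

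Cell type markers tracked several of the genes. Each of the 8 genes was set against 8 marker scores, and 24 of the 64 relations passed an adjusted p under 0.05 (permutation test with 100000 resamples, adjusted over the 64). That count was 28 without the array progressive 16, and 16 each under quantile normalisation and as deviations from the mean of slide and group. Such relations are common in these blood samples: at the size of the smallest called r, 0.417, they were reached by 29.9% of all genes for the neutrophil score, 24.4% for the monocyte score, 23.5% for the platelet score, 27% for the endothelial score, 18% for the NK and cytotoxic score, 15% for the erythroid score and 9.74% for the B cell score. No member passed with the T cell score, which 27.5% of genes reached. Markers that are members were left out of the scores. How far the scores vary together over the mares was not tested. Relations of a gene with both the neutrophil and the monocyte score can therefore not be read as separate.

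**Figure D4:**
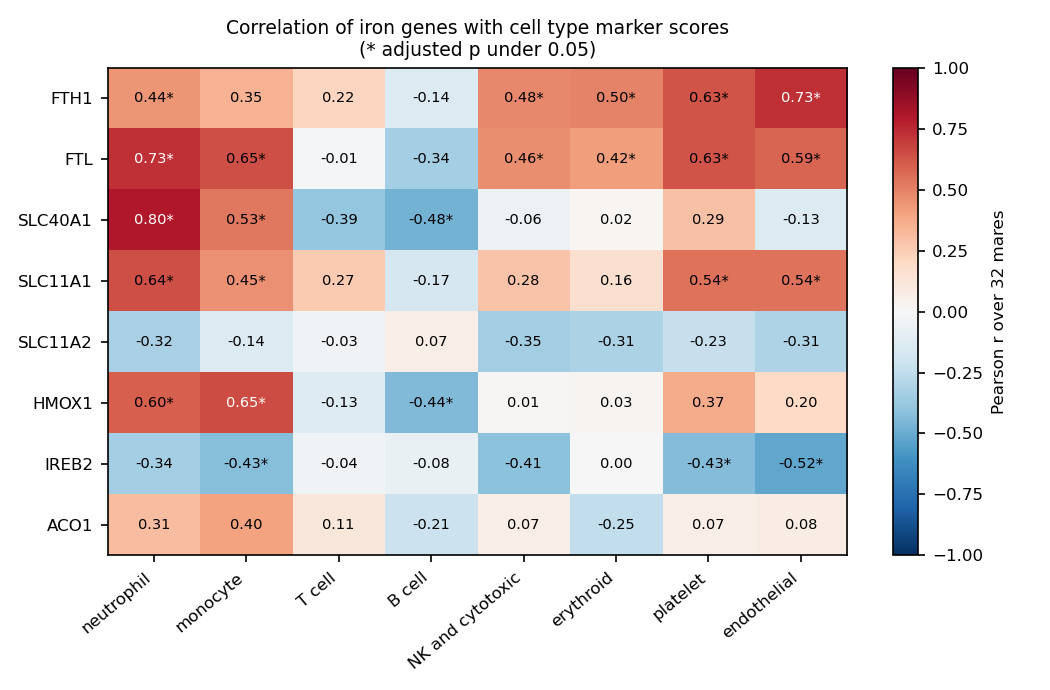
Colours and numbers give Pearson's r over 32 mares between each of the 8 measured iron genes (rows) and the marker score of each of 8 cell types (columns), with a star where the permutation p adjusted over 64 relations is under 0.05. The neutrophil column holds SLC40A1 at 0.80, FTL at 0.73, SLC11A1 at 0.64 and HMOX1 at 0.60, and the SLC11A2 and ACO1 rows hold no star.

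SLC40A1 followed the neutrophil score most closely of the 8 genes on the main scaling. FTL was closer under quantile normalisation (0.878 against 0.821) and in the series table (0.873 against 0.823). For SLC40A1 r was 0.799 (permutation p = 1e-05, the smallest possible here, adjusted p = 0.000427) and rho 0.775 (permutation p = 1e-05, adjusted p = 0.00032). Without the 2 mares farthest from the median of the score, the rule for all relations with scores, r was 0.792. Within slides 1 to 4 it was 0.8003, 0.3204, 0.820 and 0.937, and it was 0.829 within progressive and 0.808 within brutal mares. SLC40A1 also correlated with the monocyte score (r = 0.530, adjusted permutation p = 0.00842) and negatively with the B cell score (r = -0.476, adjusted permutation p = 0.0247), but slide 2 alone gave -0.094 and 0.335, on the other side of 0. As deviations from the mean of slide and group the relation with the B cell score was -0.402 and no longer passed (adjusted permutation p = 0.0916). By r with the neutrophil score SLC40A1 ranked 209 of 9385 genes.

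FTL, SLC11A1 and HMOX1 shared the relation with neutrophil markers. FTL had an r of 0.734 (permutation p = 2e-05, adjusted p = 0.000427, rho = 0.641 with permutation p = 0.00019), 0.621 without the 2 farthest mares, and 0.809, 0.458, 0.333 and 0.794 within slides. SLC11A1 had an r of 0.642 (permutation p = 0.00011, adjusted p = 0.00117, rho = 0.522 with permutation p = 0.00279), 0.473 without the 2 farthest mares, and 0.874, 0.626, 0.118 and 0.762 within slides. HMOX1 had an r of 0.597 (permutation p = 0.0003, adjusted p = 0.00213, rho = 0.662 with permutation p = 0.0001), 0.597 without the 2 farthest mares, and 0.679, 0.449, 0.678 and 0.560 within slides. These 3 relations were positive on every slide and past the threshold under each of the 7 alternatives. FTH1 had an r of 0.442 (permutation p = 0.0119, adjusted p = 0.0363), whose rho of 0.380 did not pass (adjusted p = 0.0722), and it was 0.273 without the 2 farthest mares. That relation depended on the processing: r was 0.698 under quantile normalisation, 0.793 in the series table and 0.604 with the mean of a gene's probes (adjusted permutation p = 0.00016, 0.00016 and 0.00185), against 0.338 when scaled to probes detected on all arrays and 0.324 as deviations from the mean of slide and group (adjusted permutation p = 0.132 and 0.304).

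The monocyte score went with HMOX1 and FTL. HMOX1, which monocytes and macrophages induce when they meet haem, had an r of 0.651 (permutation p = 7e-05, adjusted p = 0.00112) and a rho of 0.754 (permutation p = 1e-05, adjusted p = 0.00032). It was 0.626 without the 2 farthest mares, 0.761, 0.600, 0.551 and 0.641 within slides 1 to 4, and 0.722 within progressive and 0.617 within brutal mares. FTL had an r of 0.648 (permutation p = 0.00011, adjusted p = 0.00117, rho = 0.625 with permutation p = 0.00018), 0.616 without the 2 farthest mares, and 0.783, 0.391, 0.171 and 0.574 within slides. SLC11A1 reached 0.455 (adjusted permutation p = 0.0285) and IREB2 -0.426 (adjusted permutation p = 0.0424), which passed under 4 and 1 of the 7 alternatives, with 0.292 and -0.273 under quantile normalisation. HMOX1 was also negative with the B cell score, at -0.443 (adjusted permutation p = 0.0349), and as deviations from the mean of slide and group at -0.385 (adjusted permutation p = 0.188).

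**Figure D5:**
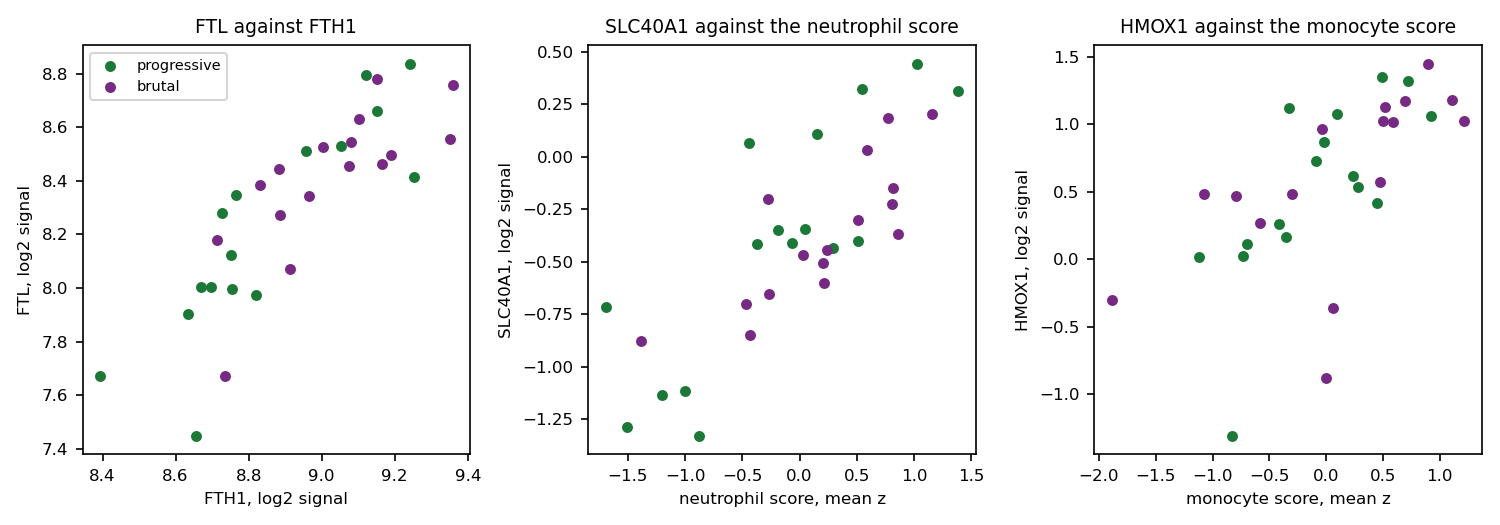
Each point is 1 of 32 mares (green progressive, purple brutal), with gene signals on the log2 scale, relative to the 75th percentile of the array, and marker scores as mean z values. FTL rises with FTH1 (r = 0.837), SLC40A1 with the neutrophil score (r = 0.799) and HMOX1 with the monocyte score (r = 0.651), and both kinds of weaning lie along the same trends.

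Ferritin heavy chain had its highest r with endothelial and platelet markers, but under quantile normalisation and in the series table its r with the neutrophil score was higher than both. FTH1 correlated with the endothelial score at r = 0.730 (permutation p = 2e-05, adjusted p = 0.000427, rho = 0.685 with permutation p = 3e-05), 0.706 without the 2 farthest mares and 0.783, 0.871, 0.786 and 0.604 within slides 1 to 4, and it ranked 9 of 9393 genes by that r. That score holds 3 genes, and the r fell to 0.290 under quantile normalisation (adjusted permutation p = 0.227) and 0.309 in the series table (adjusted permutation p = 0.192). With the platelet score r was 0.630 for FTH1 and 0.626 for FTL (adjusted permutation p = 0.0012 and 0.00119), positive on every slide and past the threshold under all 7 alternatives. Within brutal mares alone these were 0.168 and 0.305, against 0.851 and 0.771 within progressive mares, and that difference was not tested. SLC11A1 with the platelet score had 0.543 (adjusted permutation p = 0.00725) and was 0.358 without the 2 farthest mares, and it missed the threshold under quantile normalisation (0.412, adjusted permutation p = 0.0649) and in the series table (0.405, adjusted permutation p = 0.0672).

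The remaining relations past the threshold depended on the scaling. With the erythroid score r was 0.497 for FTH1 and 0.417 for FTL (adjusted permutation p = 0.0163 and 0.0468), and 0.329 and 0.355 without the 2 farthest mares. They passed under 5 and 2 of the 7 alternatives, and were 0.226 and 0.152 under quantile normalisation. The NK and cytotoxic score gave 0.482 for FTH1 and 0.463 for FTL (adjusted permutation p = 0.0199 and 0.0277), each passing under 3 of the 7 alternatives, and under quantile normalisation 0.048 and 0.114. The endothelial score gave 0.585 for FTL and 0.544 for SLC11A1 (adjusted permutation p = 0.00294 and 0.00725), passing under 5 and 4 of the 7, and under quantile normalisation 0.243 and 0.390. IREB2 was negative with the endothelial score at -0.522 and with the platelet score at -0.430 (adjusted permutation p = 0.00955 and 0.0401). With normexp both turned positive, at 0.457, which passed the threshold, and 0.177, which did not (adjusted permutation p = 0.0269 and 0.433). Averaging a gene's probes gave -0.349 and -0.104, which missed the threshold (adjusted permutation p = 0.116 and 0.710). SLC11A2 and ACO1 had no relation past the threshold by r, which lay between -0.347 and 0.066 and between -0.249 and 0.403. By rho ACO1 passed with the monocyte score (0.504, adjusted permutation p = 0.0178). SLC11A2 passed by rho with the NK and cytotoxic (-0.422), erythroid (-0.426) and platelet scores (-0.412), at adjusted permutation p-values between 0.0437 and 0.0485.

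The genes most like each member over the 32 mares are given as a description, with r as the measure of likeness. For FTH1 they were FTMT, read by the uncertain oligo described above (0.910), the synaptic vesicle protein gene SV2A (0.906) and the splicing factor gene BUD31 (0.902). Under quantile normalisation FTMT stayed first, but SV2A fell to rank 1260 and BUD31 to rank 931. For FTL they were FTMT (0.942), TYROBP, the signalling adaptor of myeloid and NK cell receptors (0.929), and PGLS, an enzyme of the pentose phosphate path (0.924), at ranks 59, 9 and 231 under quantile normalisation. Ferroportin was followed by MCMBP, a partner of the replicative helicase (0.906), BMPR2, the BMP receptor named above among systemic iron genes (0.903), and TBC1D14, a regulator of vesicle traffic (0.900), all within rank 9 under quantile normalisation.

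Among the 3 genes nearest to SLC11A1 were RNASEK (0.812) and CDC42EP3 (0.805), and HMOX1 was followed by EML2, a microtubule-binding protein (0.865), ZNF646 (0.837) and the clathrin light chain CLTA (0.827). The dim or steady members had looser company. SLC11A2 had RAD51B, a DNA repair protein (0.712), NFATC3 (0.674) and TP53BP1 (0.649), IREB2 had ERCC8, a repair factor (0.755), the deacetylase SIRT1 (0.751) and TMEM156 (0.7505), and ACO1 had CAPNS2 (0.765), RBM4 (0.703) and GLG1 (0.698). Under quantile normalisation the genes named for SLC11A1, HMOX1, SLC11A2, IREB2 and ACO1 lay within rank 33. No member of the 9 was among the 3 genes nearest to another.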

How the data were processed

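RNA of whole blood, 200 ng per mare, was labelled with Cy3 and hybridised to Agilent arrays, per the labels. Spot intensity in the deposited files comes, per the file headers, from Agilent Feature Extraction 10.10.1.1, after subtraction of the background. A deposited series table of 25619 features gives log2 values of the same arrays, normalised by the authors with a tool not given in the sources used here, and served as an alternative. Each of its columns was checked against the scanner files by rank correlation, which was 0.996 or more for the same array and 0.986 or less between arrays.

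For each array the 75th percentile of the processed signal over non-control spots was taken, signals were divided by it, and the ratio was turned to log2. Outlier spots were left out and spots of a probe averaged. A probe was tested when well above background on at least 8 of 16 arrays of a group, which left 26368 probes, and a gene was read by its brightest tested probe, which gave 9396 genes. Of all probes 23883 kept a gene name of the files, and RefSeq tables named 2935 by accession, 1241 by gene ID and 95 by synonym. Members were matched on the name in the files alone. Groups were compared with lmFit and eBayes of limma 3.58.1 (R 4.3.3), with group as the only term, two-sided, Benjamini-Hochberg adjustment over all genes and a threshold of 0.05. For IREB2 and FTH1 every probe is also given from the fit over all probes.

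Correlations were tested by two-sided permutation with 100000 resamples, in Python 3.11.15 (numpy 2.4.6; pandas 2.3.3; scipy 1.17.1), and plots made with matplotlib 3.10.9. Scripts were tested on simulated data. The genes named are all 9 members, the 3 genes nearest to each by r, the 2 pathway genes with the smallest p per role, at most 8 pairs of members in full, and the members past the threshold with a score. The other 5 pairs past the threshold are named beside these. The members, lists and tests were chosen with earlier results of these data known. Alternatives changed the background correction (normexp with an offset of 50), the scaling (quantile normalisation, or the 75th percentile of probes detected on every array), the source (the series table), the arrays (without progressive 16), the slide (as a block, or for correlations as deviations from the mean of slide and group), the filter on dim probes (none or stricter), eBayes (trend and robust) and the probe rule (a mean over the tested probes of a gene). One of the genes nearest to SLC11A1 is not reported here.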

Additional observations from a re-analysis of the deposited data

How the results depend on the processing

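No paired analysis was possible because the labels tie no progressive mare to a brutal mare. No gene was called between the groups under any alternative, so these say nothing of how stable an absent call is. Of 78 values for the differences of single iron genes under the alternatives, 76 kept their sign, and with normexp the other 2 turned, SLC11A2 to -0.035 and IREB2 to -0.036. FTH1 lay between -0.180 and -0.109, with unadjusted p between 0.0208 and 0.063. The count of wider pathway genes at an unadjusted p under 0.05 was 1 in place of 2 under quantile normalisation, with the series table, without the array progressive 16 and with no filter on dim probes, and 3 with slide as a block. The 13 correlated pairs became 7 under quantile normalisation and 6 with the mean of a gene's probes. Of 259 values for single correlations under the alternatives 182 stayed on their side of the threshold, 71 no longer passed and 6 changed sign. All 6 were with normexp, FTL with SLC11A2 at 0.204 and 5 of IREB2: 0.192 with FTL, 0.441 with FTH1, 0.129 with SLC11A1, 0.457 with the endothelial score and 0.177 with the platelet score. Those with FTH1 and the endothelial score passed the threshold with the changed sign. The cause of the changed signs was not tested. Signal over background limits TFRC, IREB2 (by the probe used) and SLC11A2, which were not well above background on 32, 6 and 3 of 32 arrays. By the barcode in the headers, arrays of row 1 had 59.8 to 66.0% of spots well above background and arrays of row 2 had 53.0 to 59.6%. Every array where IREB2 or SLC11A2 fell short was of row 2. Row entered no fit or correlation, and its part in these values was not tested.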

Other observations

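The second IREB2 probe had 1 value far from the rest. In the mare progressive 7 it read -1.08, against -3.55 in the next highest mare, a gap of 5.52-fold, beside an SD of 0.379 over the other 31 mares. The first IREB2 probe read -4.15 in that mare. Over the 32 mares both probes correlated with r = 0.076, and without progressive 7, an alternative chosen after the data were seen, with r = 0.388. The second probe averaged -4.05 ± 0.86 after progressive and -4.14 ± 0.41 after brutal weaning (SD, n = 16 each), and without that mare its difference was -0.11 in place of 0.09.

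Other probes on the array carry ferritin sequence without one of the 9 symbols. A probe for an Ensembl transcript of FTL followed the FTL probe with r = 0.821, and averaged 0.871 ± 0.635 after progressive and 1.014 ± 0.585 after brutal weaning (SD, n = 16 each). An unnamed probe that shares 40 bases in a row with the brighter FTH1 probe followed it with r = 0.993 and differed by -0.16 (SE 0.082, unadjusted p = 0.0514, adjusted p = 0.996 in limma). A probe named only by a locus number, and taken as like the ferritin heavy chain, was well above background on 2 of 32 arrays and had r = 0.191 with FTH1. The probes set beside the members here were chosen with their values in view.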
